A study of Mus musculus with 5 samples.

Results

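The regions described here lie at mouse olfactory receptor genes and carried the histone variant macroH2A1.2 fused to GFP in 3T3-L1 cells. Enriched regions of 4 ChIP-Seq samples were merged wherever they shared at least 1 bp, and an autosomal merged region was kept when it overlapped the body, or the 10 kb on either side, of a protein-coding gene whose symbol begins with Olfr in GENCODE M21 on mm10. Of 62927 merged regions in all and 61942 on autosomes, 245 met this rule. They touched the neighbourhoods of 170 of the 1128 autosomal Olfr genes, which lie on 17 autosomes in 48 clusters when genes with starts less than 1 Mb apart are joined. The rule used position only and no read count.

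3T3-L1 cells are mouse fibroblasts that turn into adipocytes when given insulin, dexamethasone and IBMX, here for 60 h and then without the last 2 agents. All cells stably expressed macroH2A1.2 from a lentivirus, controls included, so that the signal is that of a tagged and overexpressed histone in a single cell line, precipitated with an anti-GFP antibody before differentiation (pre-adipocytes, n = 2) or after it (mature adipocytes, n = 2). A single library without antibody was the control, and its reads are given beside the ChIP reads of each region. Conditions were read from the sample titles, while the descriptions of both mature samples name the state before differentiation, so every direction between conditions below holds for the titles only.

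The methods call the replicates biological, and neither they nor the labels say how separate the cultures were. The tables held 36468 and 38546 regions in pre-adipocyte replicates 1 and 2, and 59375 and 61196 in mature replicates 1 and 2. Pre-adipocyte replicate 2 was the shallow library, with a size relative to the control of 0.549 against 1.202 to 1.227 in the other samples. The tables hold no expression values, so the labelled states could not be checked against RNA. As occupancy only, Pparg, the master regulator of fat cell differentiation, and Adipoq, which encodes adiponectin, had a region within 10 kb in all 4 samples, and Plin1, which encodes the lipid droplet coat protein perilipin, had none. Fabp4, a fatty acid carrier of adipocytes, had a region in mature replicate 2 only, and Cebpa, another regulator of fat cell differentiation, had one in every sample but pre-adipocyte replicate 2.

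Olfactory receptors are G protein-coupled receptors that detect odorants. They form the largest gene family of the mouse, arranged in clusters on many chromosomes, and each olfactory sensory neuron expresses a single allele of a single receptor gene while the other receptor genes are kept silent in heterochromatin. Most coding regions are intronless, the promoters are typically AT-rich, and sites for Ebf (O/E) factors and homeodomain factors such as Lhx2 are typical of them. MacroH2A is an H2A variant with a large additional macro domain and is associated mainly, though not always, with silent chromatin. In fibroblasts and fat cells most olfactory receptor genes are not expressed.

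The receptor promoters inside called regions are shown first, since promoter position is the only part of these neighbourhoods for which sequence was used here. RefSeq promoter sequences (250 bases before the RefSeq start, GRCm38.p6, the assembly of mm10) were found for 926 of the 1128 genes. RefSeq and GENCODE starts differ for some genes. Of the sequences printed below, those of Olfr96, Olfr101, Olfr63 and Olfr457 lie inside the GENCODE gene body, and that of Olfr98 lies partly inside. They are therefore promoters by the RefSeq start only. Of 929 promoters, 41 lay at least partly within a region of at least 1 sample, or 4.41%, compared with 18.3% of 31396 autosomal promoters. Only 3 lay in a region in every sample, and all were on chromosome 17. They belong to Olfr96 at chr17:37224841-37225090 on the plus strand, Olfr101 at chr17:37300485-37300734 on the minus strand and Olfr63 at chr17:33268476-33268725 on the plus strand. Beside them stand Olfr98 at chr17:37263663-37263912 on the minus strand, covered in 3 samples and the only one of the 6 with an Ebf core CCCNNGGG, and Olfr456 at chr6:42487215-42487464 and Olfr457 at chr6:42472177-42472426, both on the minus strand and covered in both pre-adipocyte samples and in neither mature sample. The promoter of Olfr47 had the same pattern as those of Olfr456 and Olfr457. The reverse, both mature samples only, was found at Olfr97 and Olfr102, and the shares over all promoters were not counted. The 6 printed were chosen after their values were seen, each is printed 5′ to 3′ on the gene's strand, and capitals mark CCCNNGGG.
Olfr96: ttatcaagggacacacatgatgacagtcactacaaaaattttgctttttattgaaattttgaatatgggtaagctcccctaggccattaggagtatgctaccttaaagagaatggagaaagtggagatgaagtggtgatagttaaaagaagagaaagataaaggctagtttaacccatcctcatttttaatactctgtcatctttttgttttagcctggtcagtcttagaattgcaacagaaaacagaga
Olfr101: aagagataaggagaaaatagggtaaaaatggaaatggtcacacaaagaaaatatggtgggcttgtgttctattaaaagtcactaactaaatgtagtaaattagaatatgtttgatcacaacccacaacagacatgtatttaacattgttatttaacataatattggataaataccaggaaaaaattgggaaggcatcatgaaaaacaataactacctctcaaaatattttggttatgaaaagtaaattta
Olfr63: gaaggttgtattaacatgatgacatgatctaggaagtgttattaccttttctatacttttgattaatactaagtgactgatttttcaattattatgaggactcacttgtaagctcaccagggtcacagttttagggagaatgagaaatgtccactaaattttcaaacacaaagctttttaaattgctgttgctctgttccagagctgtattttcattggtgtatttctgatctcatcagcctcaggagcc
Olfr98: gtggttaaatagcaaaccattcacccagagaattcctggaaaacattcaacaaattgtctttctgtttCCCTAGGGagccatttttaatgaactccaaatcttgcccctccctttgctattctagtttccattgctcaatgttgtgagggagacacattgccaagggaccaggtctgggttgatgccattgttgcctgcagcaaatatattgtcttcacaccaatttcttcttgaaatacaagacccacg
Olfr456: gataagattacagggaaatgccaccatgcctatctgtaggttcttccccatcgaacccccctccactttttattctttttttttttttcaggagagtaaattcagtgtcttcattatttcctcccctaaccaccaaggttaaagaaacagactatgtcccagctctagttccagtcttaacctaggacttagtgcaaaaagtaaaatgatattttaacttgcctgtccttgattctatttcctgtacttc
Olfr457: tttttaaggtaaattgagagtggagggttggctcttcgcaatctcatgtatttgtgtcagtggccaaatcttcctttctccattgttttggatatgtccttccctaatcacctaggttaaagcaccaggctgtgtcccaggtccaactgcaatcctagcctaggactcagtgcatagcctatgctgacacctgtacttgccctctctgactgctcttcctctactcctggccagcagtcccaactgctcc

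The 3 RefSeq promoters covered in every sample, which lie inside the GENCODE gene bodies, were AT-rich and had no CpG. Their GC content was 35.6%, 28.4% and 35.6% for Olfr96, Olfr101 and Olfr63. Across the family the order was different. The median GC content was 43.2% for promoters of the Olfr genes with a region within 10 kb in all 4 samples (39 promoters), 41.2% for those with a region in at least 1 sample (133) and 33.2% for those without (796), whereas the median of all autosomal promoters was 52.4%. CCCNNGGG, searched on both strands, was present in 6.77% of promoters of Olfr genes with a region, in 2.01% of those without and in 12.0% of all promoters. TAATTA, the homeodomain core, was present in 13.5%, 18.97% and 4.81%, respectively. Promoters of the genes with a region in all 4 samples had CCCNNGGG in 12.8% and TAATTA in 10.3%, which are 5 and 4 of 39 promoters. Genes of a cluster are not independent of each other and a match describes letters only, so no test was made on these shares, and the part of base composition in them was not tested.

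Olfactory receptor genes were seldom near a region. In pre-adipocytes, 89 and 101 of 1128 autosomal Olfr genes had a region within 10 kb (7.89% and 8.95%), and in mature adipocytes 106 and 96 had one (9.40% and 8.51%). In the same order of samples, 36.6%, 31.5%, 43.3% and 43.5% of the 19679 other autosomal protein-coding genes had a region. The share was lower for Olfr genes in 4 of 4 samples, with differences of -28.7, -22.6, -33.9 and -35.02 percentage points (exact sign-flip test over samples, two-sided p = 0.125, the smallest that 4 samples allow). Over all samples, 958 Olfr genes (84.9%) had no region in any sample and 42 (3.72%) had one in every sample, compared with 22.1% of other genes in every sample. Olfr genes are short (median 5994.5 bp, against 19366 bp for the other genes), so that their windows are smaller. Measured per base pair instead, regions covered 3.36%, 1.70%, 2.82% and 2.61% of the 22.4 Mb of Olfr neighbourhood and 11.6%, 5.74%, 12.2% and 11.8% of the autosomes, again lower in 4 of 4 samples (exact sign-flip p = 0.125). The neighbourhoods of other coding genes stood between them at 8.58%, 3.99%, 8.95% and 8.65%.

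With the regions as deposited, the samples of the 2 conditions overlapped in the share of Olfr genes with a region and in the covered share. The mean share of Olfr genes with a region was 8.42% ± 0.752 before and 8.95% ± 0.627 after differentiation (SD, n = 2 each), higher by 0.532 percentage points in mature adipocytes (exact permutation test, two-sided p = 0.667, where 2 samples against 2 cannot give less than 0.333). The covered share of the neighbourhood was 2.53% ± 1.18 and 2.72% ± 0.144 (SD, n = 2 each), a difference of 0.187 points (exact permutation p = 1). The ratio of the Olfr share of genes to that of other genes was 0.216 and 0.284 before differentiation and 0.217 and 0.196 after it, a difference of -0.044 (exact permutation p = 0.667). Without pre-adipocyte replicate 2 the covered share was lower by 0.646 points in mature adipocytes, and without pre-adipocyte replicate 1 it was higher by 1.02 points, so its direction rested on which pre-adipocyte library was used.

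With stricter regions some of these shares separated, mature adipocytes being higher, whereas the covered share at an FDR of 1e-05 and the share of genes at a fold of at least 2 still overlapped. When regions were kept only where both replicates had a region and 50% or more of each was shared, 2.57% and 2.48% of Olfr genes had a region in pre-adipocytes and 4.96% and 5.05% in mature adipocytes, and 0.564% and 0.519% of the neighbourhood was covered compared with 1.54% and 1.43%. At an FDR of 1e-05 the share of genes was 6.38% in both pre-adipocyte samples and 8.78% and 7.45% in the mature samples. At a fold enrichment of at least 2, the covered share was 0.191% and 0.562% compared with 0.613% and 0.688%. Each of these 4 separations had an exact permutation p of 0.333, the smallest possible. The 50% overlap keeps only regions that the 2 replicates of a condition share, which draws their values together. Separation under that filter therefore cannot be read as a difference between conditions. With the 50% overlap the ratio of the Olfr share of genes to that of other genes was 0.231 and 0.229 in pre-adipocytes. In mature adipocytes it was 0.201 and 0.206, a difference of -0.026, so the share of other genes rose by a larger factor. The difference in this ratio was -0.021 at an FDR of 1e-05 and 0.045 at a fold of at least 2. This ratio concerns genes. For the covered share, no value of the autosomes was computed with stricter regions, and the mature samples held more regions in all. Its separations are therefore not shown to be particular to the Olfr neighbourhood. The 50% overlap also pairs pre-adipocyte replicate 1 with the shallow replicate 2, and the part of depth was not tested.

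**Figure D1:**
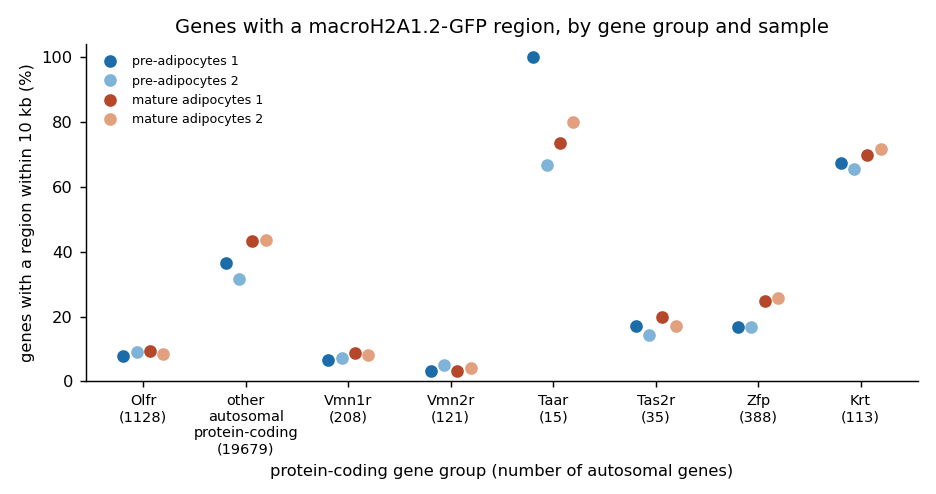
Share of protein-coding genes with a macroH2A1.2-GFP region in the gene body or within 10 kb, for olfactory receptor genes (Olfr), all other autosomal protein-coding genes and 6 other gene families; each point is 1 sample and the number of genes is in brackets. The Olfr points lie between 7.89% and 9.40%, below the other genes at 31.5% to 43.5% in every sample.

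Other chemosensory receptor families were compared in the same way. Vmn1r genes, vomeronasal receptors of the first class (208 autosomal genes), had a region in 6.73%, 7.21%, 8.65% and 8.17% of cases in pre-adipocyte replicates 1 and 2 and mature replicates 1 and 2. Vmn2r genes, the second vomeronasal class (121 genes), had one in 3.31% to 4.96%. Both families thus lay in or below the range of the Olfr genes. Bitter taste receptors (Tas2r, 35 genes) were somewhat higher, at 14.3% to 20%. Trace amine-associated receptors (Taar, 15 genes), which also serve smell, stood apart, as 66.7% to 100% of them had a region in each sample. The Taar genes share a single locus and therefore count as a single observation. Families that are clustered but not sensory, added after the other comparisons, had higher shares, with 16.8% to 25.8% of 388 Zfp genes and 65.5% to 71.7% of 113 Krt genes.

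Genes of the wider olfactory pathway lie outside the receptor clusters and were counted separately. Of 10 genes for signal transduction and receptor traffic, 8 had a region within 10 kb in at least 1 sample and 4 in all 4. Among the other autosomal coding genes, 55.9% had a region in at least 1 sample and 22.1% in all 4. The 4 were Cngb1, a subunit of the olfactory cyclic nucleotide-gated channel, Ano2, the calcium-activated chloride channel of the cilia, and Rtp1 and Rtp2, which bring receptors to the cell surface. Omp, the marker protein of mature olfactory neurons, and Cnga4, another channel subunit, had none. Of 11 regulators of receptor choice, 7 had a region in at least 1 sample, a share close to those 55.9%, and 5 in all 4, namely Ebf2 and Ebf4, members of the Ebf factor family, Lhx2, the homeodomain factor of olfactory neurons, Lbr, the lamin B receptor, and Cbx5, which encodes the heterochromatin protein HP1-alpha. Ebf2 also acts in fat cell lineages, and no expression was measured here.

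Close to 50% of the 245 regions were called in a single sample, compared with 40.9% of the other autosomal regions. The 245 had a median merged length of 4000 bp (range 600 to 56400 bp), compared with 4400 bp for the others. Together the 245 covered 1.48 Mb. A total of 121 (49.4%) were called in 1 sample, 56 (22.9%) in 2 samples, 31 (12.7%) in 3 samples and 37 (15.1%) in all 4. Of the other autosomal regions, 22.8% were called in 2 samples and 15.7% in 3. Of all autosomal merged regions, 20.6% were called in all 4. The median length was 2600 bp for those called in 1 sample and 11200 bp for those called in all 4. Since merging joins the intervals of all samples, length and number of samples are not independent. In position, 134 regions (54.7%) overlapped an Olfr gene body and 111 lay only in the 10 kb flanks. Only 24 also overlapped the body of another protein-coding gene, and 8 spanned at least 2 Olfr bodies, 3 at most. In single samples, the annotated start of an Olfr gene was itself covered for 38, 12, 26 and 23 genes, in the usual order. At the edge of the rule, the last regions inside lay 9898, 9765 and 9531 bp from an Olfr body and the first outside 10000, 10213 and 10227 bp from it.

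Enrichment over the control was modest in these regions. The authors' fold enrichment, the ratio of ChIP to control reads after scaling for library size, had a median of 1.502 over the 120 regions of pre-adipocyte replicate 1, 1.93 over the 119 of replicate 2, 1.75 over the 163 of mature replicate 1 and 1.75 over the 157 of mature replicate 2. The medians of the other autosomal regions were 1.61, 2.01, 1.79 and 1.81, higher in 4 of 4 samples. ChIP reads per kb, scaled to the control library, did not differ in a constant direction (lower in 2 of 4 samples, exact sign-flip p = 0.875). The control itself was higher, with medians of 18.5, 19.2, 17.7 and 17.8 control reads per kb at Olfr genes compared with 17.4, 18.2, 17.1 and 17.3 elsewhere. These values are the reads of 1 control library over the regions called in each sample. They are not 4 independent observations, so no test applies to them. The fold enrichment divides by the same control reads, so no test is given for its 4 comparisons with other regions either. Between conditions, the mean of the median fold was 1.72 ± 0.305 and 1.75 ± 0.000629 (SD, n = 2 each), a difference of 0.036 (exact permutation p = 1). The median length of regions in a sample was 5200 and 2800 bp in pre-adipocytes and 3200 and 3000 bp in mature adipocytes, so that the mature samples lay between the pre-adipocyte replicates (difference -900 bp, exact permutation p = 1).

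The clusters differed greatly. Chromosomes 2 and 7 hold the most Olfr genes and had very few regions near them, as only 8 of 294 genes on chromosome 2 and 13 of 244 on chromosome 7 had a region in any sample. On chromosome 2, regions covered 0.0363%, 0.107%, 0.0327% and 0.0763% of the Olfr neighbourhood compared with 19.97%, 9.90%, 19.97% and 19.1% of the rest of the chromosome. Chromosome 7 differed from chromosome 2 in that it was poor in regions throughout, with 0.209%, 0.251%, 0.306% and 0.223% at Olfr genes and 1.17%, 0.647%, 1.52% and 1.56% elsewhere. The control depth in the regions of chromosome 7 was also low, at 12.9 to 13.5 reads per kb compared with 18.6 to 19.4 over all autosomes, and its part in the low count was not tested. At the other end were chromosome 6, with 26 of 28 genes at a region in at least 1 sample and 44 regions, and chromosome 15, with 9 of 9 genes and 25 regions. Chromosome 11 had 43 regions at 29 of its 82 genes and chromosome 17 had 23 regions at 21 of its 53.

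Within chromosomes, Olfr neighbourhoods were covered less than the rest of the same chromosome in all 4 samples on 11 of 17 chromosomes, and more in all 4 on 3. The 3 were chromosome 3 with 2 Olfr genes, chromosome 6 with 28 and chromosome 15 with 9. Counted by genes in place of base pairs, the Olfr share was lower in all 4 samples on 11 chromosomes, with chromosome 1 in place of 4. It was higher in all 4 on chromosomes 3, 8 and 15. On chromosome 6 it was higher in pre-adipocytes, at 82.1% and 78.6% compared with 44.6% and 40.6% of other genes. In mature adipocytes it was lower there, at 46.4% and 42.9% compared with 54.0% and 51.3%. On chromosome 15, 41.8%, 15.4%, 44.6% and 36.1% of the Olfr neighbourhood was covered, and 26.8%, 14.8%, 26.0% and 25.3% of the rest of the chromosome.

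**Figure D2:**
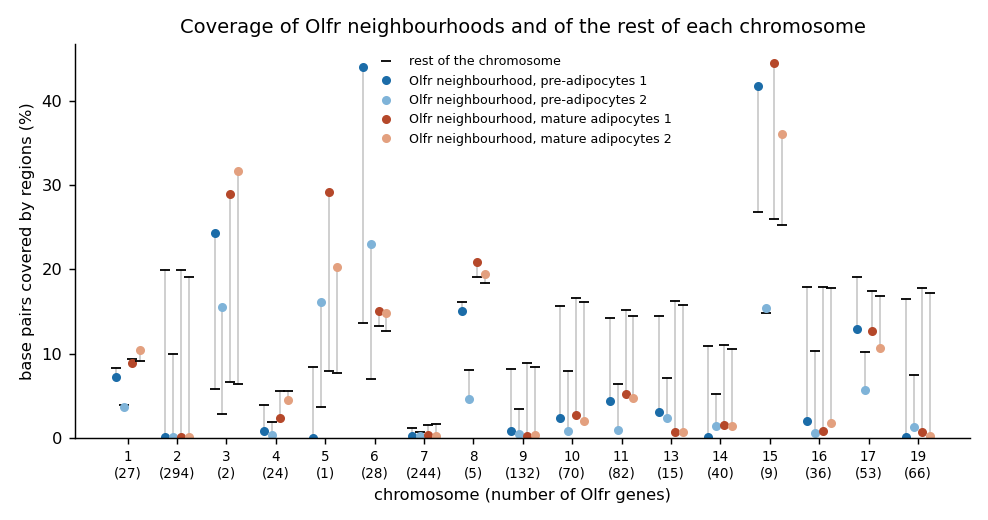
Percent of base pairs covered by regions in the Olfr neighbourhood (bodies plus 10 kb, coloured points, 1 per sample) and in the rest of the same chromosome (black dashes), by chromosome with the number of Olfr genes in brackets. Points lie under their dashes in every sample on 11 of 17 chromosomes, with the widest gaps on chromosome 2, and above them on chromosomes 3, 6 and 15.

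Large clusters were the least occupied. In 1 or more samples a region was near 62.5% of the 8 Olfr genes that stood alone, 62.5% of 40 genes in clusters of 2 to 5, 27.2% of 147 in clusters of 6 to 19, 16.7% of 348 in clusters of 21 to 60 and 7.18% of 585 genes in the 5 largest clusters. In pre-adipocyte replicates 1 and 2 and mature replicates 1 and 2, the share in these 5 clusters was 1.71%, 4.62%, 2.39% and 2.39%. The largest, on chromosome 2, has 227 genes from Olfr987 to Olfr1274-ps, of which 7 had a region in any sample and none in all 4. The chromosome 7 cluster that spans the beta-globin genes holds the class I receptors, which resemble the receptors of fish. Of its 129 genes, 4, 6, 8 and 6 had a region and none in all 4. Its neighbour of 68 genes on chromosome 7, from Olfr693 to Olfr519, had no region in any sample. In all, 14 clusters with 231 genes were without a region in every sample, and in 14 other clusters every gene was at a region in at least 1 sample.

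The distance to the nearest other protein-coding gene moved with the same quantity. It had a median of 158 kb for Olfr genes without a region, 33.7 kb for those with a region in at least 1 sample and 18.5 kb for those with a region in all 4. Of 288 Olfr genes within 50 kb of another coding gene, 37.2% had a region in at least 1 sample, compared with 13.1% of 434 genes at 50 to 200 kb, 1.79% of 335 at 200 to 500 kb and 0 of 71 genes farther away. The 0 of 71 describes these tables only, at the authors' threshold. Coverage was also higher farther from the receptor genes, though not at the first step. In pre-adipocyte replicates 1 and 2 and mature replicates 1 and 2, it was 3.83%, 1.81%, 2.65% and 2.80% in Olfr bodies, 3.13%, 1.64%, 2.91% and 2.52% within 10 kb of them, where it was lower than in the bodies in 3 of 4 samples, 5.24%, 2.65%, 4.56% and 4.68% at 10 to 50 kb and 9.86%, 4.80%, 9.57% and 9.01% at 100 to 500 kb. Cluster size and distance to other genes go together, and their parts cannot be told apart in these shares.

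**Figure D3:**
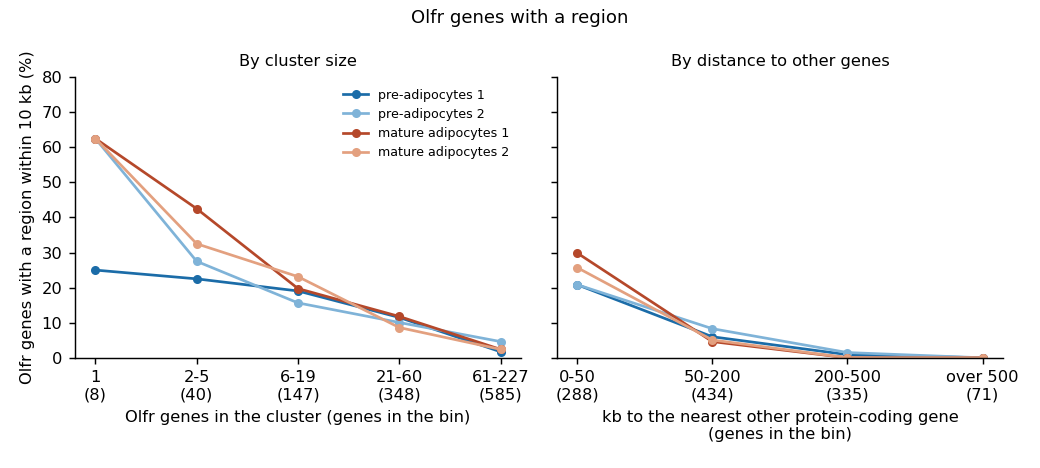
Share of Olfr genes with a region within 10 kb in each of the 4 samples, by the number of Olfr genes in their cluster (left) and by distance to the nearest protein-coding gene outside the family in kb (right); numbers of genes are in brackets. In every sample the share in the largest clusters is the lowest of its line, between 1.71% and 4.62%, and no gene more than 500 kb from another coding gene has a region.

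The cluster of 21 genes from Olfr459 to Olfr47 on chromosome 6 (chr6:41768770-43236959) departed from the family, and it changed with the condition in the direction opposite to the region totals. A region lay within 10 kb of 21 and 19 of its genes in pre-adipocytes and of 10 and 8 in mature adipocytes. Regions covered 55.8% and 27.3% of its neighbourhood before differentiation and 17.7% and 17.2% after it, so that the groups did not overlap in either measure (exact permutation p = 0.333 for the share of genes, the smallest possible). The shallow pre-adipocyte library was above both deeper mature libraries. In the surrounding 1 Mb on either side, outside the neighbourhood, the shares were 27.2%, 17.0%, 20.3% and 17.3%, and in the rest of chromosome 6 outside all Olfr neighbourhoods they were 13.6%, 6.92%, 13.2% and 12.7%. Control depth in the cluster's regions was 21.5, 22.3, 23.1 and 23.4 reads per kb. These values come from 1 control library and differ only through the regions called, so they cannot bear on the conditions. The cluster was picked out among 48 for this difference, and across the 48 the share of genes with a region was higher in both pre-adipocyte samples in 2 clusters and higher in both mature samples in 7. The other of the 2 is its neighbour on chromosome 6 with Olfr461 and Olfr460, where 2, 2, 1 and 1 genes had a region.

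The difference lay in the distal part of the cluster. Olfr459, Olfr458, Olfr457, Olfr456, Olfr455 and Olfr453, the 6 genes nearest its start, each had a region in all 4 samples. From Olfr450 to Olfr434, a span of 12 Olfr genes and 406 kb (chr6:42811939-43218113) chosen after its values were seen, regions covered 37.3% and 16.4% of the base pairs in pre-adipocytes and 2.02% and 1.48% in mature adipocytes. From Olfr458 to Olfr455 (chr6:42459979-42547587, 4 Olfr genes), the values were 82.9%, 60.5%, 56.6% and 56.9%, so that pre-adipocyte replicate 2 lay near both mature samples. In the distal span the tables held 23 and 19 regions before differentiation and 2 and 2 after it. A region that is missing from a table was not called at the authors' threshold, and the reads of a mature sample there are not in the tables.

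**Figure D4:**
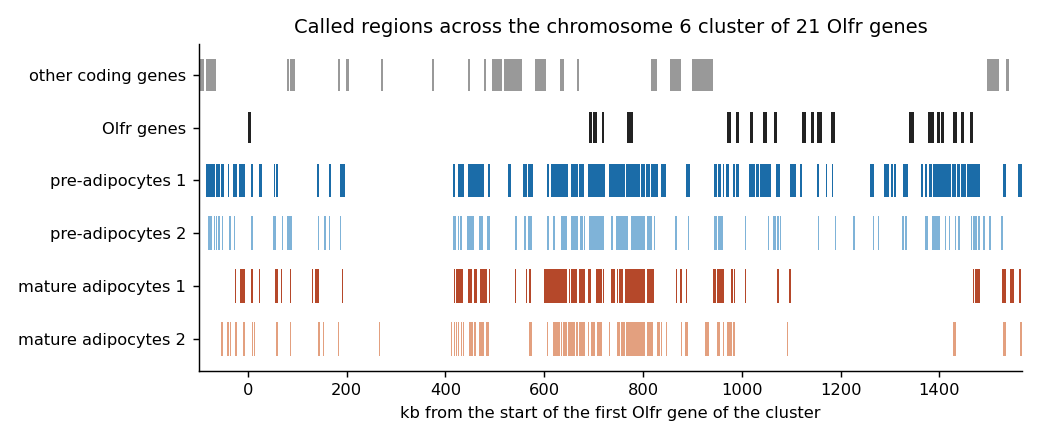
Called regions in each sample (coloured bars), Olfr genes (black) and other protein-coding genes (grey) across the chromosome 6 cluster of 21 Olfr genes, in kb from the start of its first gene, with 100 kb added at both ends. Regions of the pre-adipocyte samples run through the right-hand part of the cluster, where the mature samples have few, and all 4 samples have dense regions at the genes in the middle.

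The calls by condition are the same regions counted in another way, and so are no separate evidence for the chromosome 6 cluster. Among the 245 regions, 10 were called in both pre-adipocyte samples and neither mature sample (4.08%), a pattern found in 1.62% of all autosomal regions. Of the 10, 9 were on chromosome 6, among them a region near Olfr461 in the cluster of 2 genes, and 1 was on chromosome 19. The reverse pattern, both mature samples and neither pre-adipocyte sample, was found for 24 of the 245 (9.80%) and for 12.9% of all autosomal regions, and the 24 were spread over 11 chromosomes. Counted by genes, 12 Olfr genes (1.06%) had a region in both pre-adipocyte samples only, compared with 0.913% of all autosomal protein-coding genes, and 9 of the 12 belonged to the chromosome 6 cluster. A region in both mature samples only was found for 11 Olfr genes (0.975%), compared with 4.86% of all autosomal coding genes. Regions of 1 cluster are neighbours and are not independent, and no test was made on these counts.

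Of the regions called in both pre-adipocyte samples only, those with the highest mean fold enrichment were all on chromosome 6. The region at chr6:43188601-43191600, between Olfr13 and Olfr435, had 97 ChIP and 41 control reads in replicate 1 and 45 and 37 in replicate 2, a fold enrichment of 1.97 and 2.22. The region at chr6:42809601-42827000, over Olfr450, was 17400 bp long in replicate 1 with a fold of 1.31, and in replicate 2 only 1000 bp of it were called, with 29 ChIP reads and a fold of 2.52. The region at chr6:40527201-40535400, near Olfr461, had folds of 1.65 and 1.82. Only the middle region of these overlapped a receptor gene body.

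Of the regions called in both mature samples only, the highest folds were on chromosomes 11, 7 and 2. The region at chr11:73354601-73357600 overlapped Olfr20, at the edge of a cluster of 30 genes, and the body of another protein-coding gene, Gm49340. It had 100 ChIP and 26 control reads in mature replicate 1 and 87 and 21 in replicate 2 (folds 3.13 and 3.43). The region at chr7:99754001-99755800, near Olfr521, had 63 and 69 ChIP reads (folds 3.42 and 2.49). The region at chr2:37328001-37330600, at Olfr368, the last gene of its cluster, had 65 and 86 ChIP reads (folds 2.79 and 3.10). These 3 regions were 1800 to 3000 bp long. The RefSeq promoters of Olfr20, Olfr521 and Olfr368 were outside the regions in all 4 samples. Those of Olfr521 and Olfr368 lie inside the GENCODE gene bodies.

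Regions called in all 4 samples lay on 11 chromosomes, 8 of the 37 on chromosome 17 and 7 each on chromosomes 6 and 15. The longest and most read-rich was chr6:42516401-42572800 over Olfr455, 56400 bp, with 2251 and 1030 ChIP reads in pre-adipocytes and 2280 and 2364 in mature adipocytes, and folds of 1.42, 1.62, 1.41 and 1.51. The adjoining chr6:42463201-42492600 spanned the bodies of Olfr458, Olfr457 and Olfr456 with folds of 1.32, 1.53, 1.33 and 1.32. These values were close to each other in all samples. On chromosome 17, in the large cluster by the major histocompatibility complex, chr17:37232601-37260000 over Olfr97 had 989, 280, 1219 and 1153 ChIP reads and folds of 1.62, 1.75, 1.82 and 1.97. In that cluster of 49 genes, from Olfr90 to Olfr136, 14, 11, 14 and 12 genes had a region, 9 of them in every sample.

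The remaining read-rich regions overlapped genes of other kinds or lay at cluster ends. The region chr15:98493201-98517800 covered Olfr279 and reached into Kansl2, which encodes a subunit of a histone acetyltransferase complex, with folds of 1.54, 1.74, 1.47 and 1.62. The region chr1:174029201-174061000 covered Olfr433 and Olfr432 and overlapped Ifi205, an interferon-inducible gene, with folds of 1.55, 1.88, 1.47 and 1.62. The region chr11:59587001-59615200 over Olfr223 had 802, 69, 880 and 780 ChIP reads and folds of 1.60, 1.55, 1.75 and 1.71, and in the shallow pre-adipocyte replicate 2 only 4600 of its 28200 bp were called.

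Read density in the regions called in every sample was compared between conditions with edgeR's quasi-likelihood test, with called length as an offset, over 12857 regions of the whole genome. Of these, 0.0778% were higher in mature adipocytes and 0.00778% (1 region) higher in pre-adipocytes at an adjusted p of 0.05, and 9.15% had an unadjusted p under 0.05. That 1 region was among the 37 Olfr regions tested. It is chr6:40570601-40592000, which as merged overlaps the body of Olfr460 and part of Clec5a, a C-type lectin gene. It lies in the chromosome 6 cluster of 2 genes. Only the intervals of the pre-adipocyte samples reached the Olfr460 body. Reads were counted within each sample's own called intervals, so the 2 conditions were not measured over the same stretch. The ChIP reads of the region were 818 and 319 in pre-adipocytes and 509 and 327 in mature adipocytes, over 20600, 13600, 16000 and 9600 called bp. Per kb, scaled to the control library, these were 33.0 and 42.7 reads before differentiation and 25.9 and 28.2 after it, with no overlap between the groups. The log2 fold change was -0.46 ± 0.0867 (SE), with an adjusted p of 0.0131 from edgeR with Benjamini-Hochberg adjustment. It was no longer called without either mature sample (log2 fold change -0.40, edgeR adjusted p = 0.564 without replicate 1, and -0.51, 0.104 without replicate 2), although the change was about as large. With libraries scaled by their size relative to the control it was -0.47, and no Olfr region was called.

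The other 36 regions did not pass the threshold. The next by p were chr15:98187801-98197600 over Olfr288 (log2 fold change -0.36, edgeR adjusted p = 0.173) and chr1:174029201-174061000 (log2 fold change -0.22, edgeR adjusted p = 0.44). Of the 37, 21 had a log2 fold change below 0, compared with 50.2% of all regions tested, with a median of -0.0169 compared with -0.00066. An unadjusted p under 0.05 was found for 4 of the 37, near the 9.15% of all regions, and all 4 were lower in mature adipocytes. Without pre-adipocyte replicate 1 this lean was turned, with a median of 0.0336, 15 of 37 below 0 and 2 of the 3 regions with an unadjusted p under 0.05 higher in mature adipocytes. The test covered only regions called in every sample, so the distal part of the chromosome 6 cluster was outside it.

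**Figure D5:**
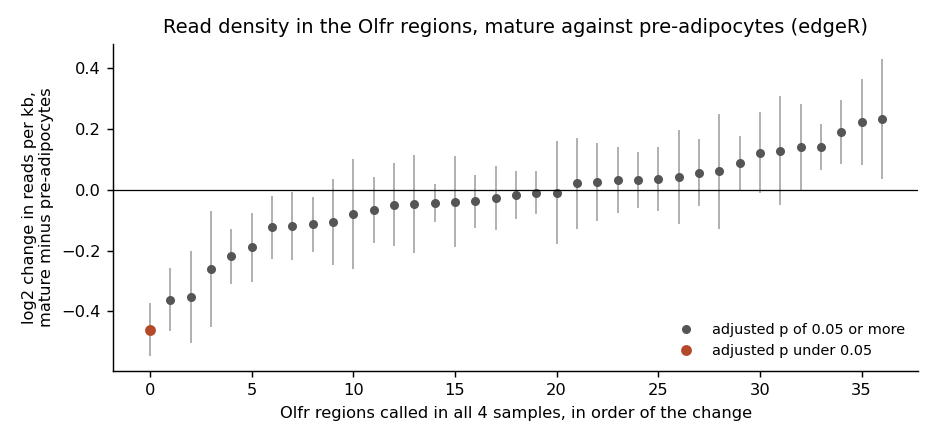
Log2 change in ChIP read density, mature minus pre-adipocytes, with its standard error (bars), for the 37 Olfr regions called in all 4 samples, in order of the change. The merged region at Olfr460, at -0.46, is the only point with an edgeR adjusted p under 0.05, and 21 of the 37 lie below 0. Only the pre-adipocyte intervals of that region reach the Olfr460 body.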

How the data were processed

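Chromatin of 3T3-L1 cells was prepared for single-read sequencing with a TruSeq ChIP kit. The authors aligned reads to mm10 with Bowtie 1.1.2, allowing up to 2 mismatches and keeping uniquely mapping reads, removed duplicates with Picard and called regions in each sample with SICER 1.1, which joins neighbouring enriched windows (tool versions per the labels). Reads that match several receptor genes equally well are lost in this step, and how many is not known. No deposited region had an FDR above 0.001, although 1% is the limit in the methods. The methods' paragraph on chromatin names adipose tissue, whereas the labels name 3T3-L1, and the description of the control names the anti-GFP antibody against its antibody field. The deposited tables hold raw counts of ChIP and control reads per region, a p-value, the FDR (a q-value) and the fold enrichment, a ratio of the 2 counts scaled by the authors for library size. No file of the control sample was analysed here.

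From these, regions were merged, assigned to GENCODE M21 genes and counted as described. Each library's size relative to the control came from the scaling of the fold enrichment, a single factor per sample. Single values of each sample were set against each other with exact permutations of the samples. Counts of regions called in all 4 samples were tested with edgeR 4.0.16 (TMM, offset of called length, quasi-likelihood, Benjamini-Hochberg) in R 4.3.3, and with DESeq2 1.42.0 as an alternative. Both the interval and the edgeR scripts were tested on simulated data, the latter without the offset of called length, so the offset itself was not checked in that way. Python 3.11.15, numpy 2.4.6 and pandas 2.3.3 were used. Promoters are those of RefSeq. Some of them lie inside the GENCODE body of their gene, and how many was not counted. The family, the gene lists and the tests were chosen with earlier results of these data known, and the Zfp and Krt families were added later still. Named regions are, for the 5 chromosomes with the most members, the member called in all 4 samples with the most ChIP reads; the 3 longest; those past an adjusted p of 0.05; and the 3 with the highest mean fold called in both samples of a single condition. Others named were chosen after their values were seen. With 2 samples per condition, p-values measure only the spread between these samples, which the methods call biological replicates without saying how separate the cultures were.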

Additional observations from a re-analysis of the deposited data

How the results depend on the processing

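Of 98 recomputed values, 77 were counted as unchanged. For a difference of means this meant the same sign, and for a count a value within a set ratio of the main one. For the merged region at Olfr460 it meant the same sign and an adjusted p under 0.05. The 77 include the sign-flip values over the pairs, which equal the main differences by construction. The number of merged Olfr regions, 245, was 202 with merging up to 1 kb apart, 206 at an FDR of 1e-05, 135 at a fold of at least 2, 134 without the flank and 404 with 50 kb, and 217 to 246 without single replicates. The mature minus pre-adipocyte difference changed sign for the ratio of Olfr to other genes at a fold of at least 2 (0.045) and for the covered share without the flank (-0.094 points). Without single replicates the differences ranged from 0 to 1.06 points for the share of Olfr genes, -0.646 to 1.02 points for the covered share, -0.0778 to -0.00943 for the ratio, -0.179 to 0.252 for the median fold and -2100 to 300 bp for the median length, the extremes of the last 4 coming from leaving out a pre-adipocyte sample. The cause was not tested. The 1 called Olfr region became 0 with library sizes relative to the control, without the length offset and at an FDR of 1e-05, and 0 to 2 without single replicates. Over all regions, calls were 11 in the main result, 12 with RLE, 56 with at least 100 reads in every sample, 27 with the replicate block, 0 with library sizes relative to the control, 3 without the length offset, 1 at an FDR of 1e-05, and 112, 224, 5 and 1 without pre-adipocyte replicates 1 and 2 and mature replicates 1 and 2. DESeq2 called 6 regions and gave no adjusted p for 36 of the 37 Olfr regions, so it has no count of them here. Replicate numbers are no evidence of pairing, as deviations from the condition means correlated at 0.00775 for the same number. The value for different numbers, -0.00775, is its mirror image by construction with 2 samples per condition. The replicate block left 1 Olfr call and every difference of means as it was, and an exact sign-flip over the pairs gave p = 1 for all 5. At the chromosome 6 cluster of 21 genes, an alternative set chosen after seeing the data, the difference in the share of genes was -52.4 points and stayed below 0 under 9 alternatives, from -14.3 points at a fold of at least 2 to -57.1 without pre-adipocyte replicate 2 or mature replicate 1. In the cluster of 2 genes it was -50.0 points and became 0 with the 50% overlap and with the 50 kb flank.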

Other observations

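The 7 protein-coding Olfr genes on chromosome X, which are outside the autosomal rule, had 0 regions within 10 kb in each of the 4 samples.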
